A study of Rattus rattus with 18 samples.

Results

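Expression of 4 genes of the extracellular matrix and its turnover was followed in the hypothalamic arcuate nucleus (ARC) of female Wistar rats: *Cd44* (ENSRNOG00000006094), *Timp1* (ENSRNOG00000010208), *Adamts1* (ENSRNOG00000001607) and *Crispld2* (ENSRNOG00000016752), out of 32883 genes listed in the count files. The genes were chosen by results from these same animals. All 4 are on the study's list of genes that differed between miR-211 mimic and inhibitor, and *Cd44*, *Timp1* and *Crispld2* are also on its list for HFS against CS, whereas *Adamts1* is not. Values from those contrasts are therefore given as descriptions without a test.

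CD44 is a cell-surface receptor for hyaluronan, the long sugar polymer that fills much of the space between brain cells, and it is carried by astrocytes and by leukocytes. The composition of this matrix is kept by secreted proteases, such as the metalloproteinase ADAMTS1, which cleaves proteoglycans of the aggrecan and versican type, and by inhibitors such as TIMP1, which binds and blocks metalloproteinases. CRISPLD2 is a secreted glycoprotein found outside cells, and its transcription is known to respond to glucocorticoids. *Timp1* and *Cd44* are known as genes that reactive glia raise after injury or inflammation.

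In the DIO/voluntary running experiment, chow-fed sedentary rats (CS, 3 libraries) were compared with rats kept from weaning into adulthood on a 60% high-fat diet, either sedentary (HFS, 3 libraries) or then given a running wheel (HFR, 4 libraries). In the miR-211 experiment, chow-fed rats with a cannula in the third ventricle were fasted overnight, infused with MiRIDIAN hsa-miR-211 mimic (4 libraries) or the MiRIDIAN hsa-miR-211-hairpin inhibitor (4 libraries), both carried in a transfection reagent, and given chow again for several hours before tissue was taken. The rats of both experiments were female, and the ARC was punched from both hemispheres. Chow runners and a negative-control oligonucleotide were not analysed here, so running cannot be separated from diet on chow, and a difference between mimic and inhibitor cannot be assigned to either compound. The libraries count ends of messenger RNA, so the level of the microRNA itself was not checked.

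Libraries of the running experiment held 4680736 to 7494207 counts. Those with mimic or inhibitor held 1275263 (mimic replicate 4) to 6615927 (inhibitor replicate 4). Levels are CPM, counts of a gene over the library total on a common scale, adjusted by edgeR's TMM factors. Of the 10 running libraries, 8 match a per-animal column of the study's list for HFS against CS, and CS replicate 2 and HFS replicate 2 match none. Libraries differed in the summed CPM of 4 identified arcuate markers (*Pomc*, *Ghrh*, *Tbx3* and *Nkx2-1*, of 7 in the list). The sum ran from 251 to 1250 in the running libraries and from 81 to 1160 in the miR-211 libraries. All 4 are on the study's list for HFS against CS, so punch content and a change of these genes cannot be told apart in it. The libraries with the lowest sums were CS replicate 3 and HFR replicate 1, both at 251, and mimic replicate 3, at 81. Tissue was sampled in bulk, so fewer cells of a type and less RNA per cell cannot be told apart.

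*Cd44*, the hyaluronan receptor, was at 4.30, 6.77 and 3.86 CPM in the CS libraries, in replicate order. It was at 10.52, 7.52 and 9.45 CPM in HFS. In HFR it was at 2.99, 6.63, 11.51 and 9.24 CPM. Every HFS library lay above every CS library, by 0.75 CPM at the closest (HFS replicate 2 against CS replicate 2), whereas the HFR libraries spanned the whole range of both sedentary groups. The CS mean was 4.98 ± 1.57 CPM (SD, n = 3), the HFS mean 9.16 ± 1.52 (SD, n = 3) and the HFR mean 7.59 ± 3.66 (SD, n = 4). These levels rest on 15 to 68 counts per library.

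*Timp1*, the metalloproteinase inhibitor, was at 16.09, 27.80 and 8.59 CPM in CS. In HFS it was at 37.93, 30.71 and 28.82 CPM. In HFR it was at 6.38, 17.51, 13.64 and 24.87 CPM. The HFS libraries were above all CS and all HFR libraries, and HFR and CS overlapped throughout. The group means were 17.49 ± 9.68 (SD, n = 3), 32.49 ± 4.81 (SD, n = 3) and 15.60 ± 7.71 CPM (SD, n = 4) in CS, HFS and HFR. The highest CS library, replicate 2, came within 1.02 CPM of the lowest HFS library.

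*Crispld2*, the secreted glycoprotein, was at 10.10, 23.52 and 14.38 CPM in CS. It was at 28.97, 31.35 and 19.86 CPM in HFS. The HFR libraries were at 5.98, 9.21, 9.80 and 14.54 CPM. All HFR libraries were below all HFS libraries, HFS and CS overlapped through CS replicate 2, and 3 of 4 HFR libraries were below all CS libraries. The CS mean was 16 ± 6.86 CPM (SD, n = 3), the HFS mean 26.72 ± 6.07 (SD, n = 3) and the HFR mean 9.88 ± 3.53 (SD, n = 4).

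*Adamts1*, the proteoglycan-cleaving protease, was barely counted in the running experiment, with 3 to 15 counts per library. Its levels were 1.31, 0.89 and 0.86 CPM in CS. They were 0.69, 1.92 and 0.64 CPM in HFS and 0.60, 2.76, 0.85 and 1.77 CPM in HFR. The 3 groups overlapped, and the gene was below edgeR's filter on low counts. Fitted without a filter, its log2 fold change was 0.08 (SE 0.82) for HFS against CS, 0.49 (SE 0.75) for HFR against HFS and 0.57 (SE 0.76) for HFR against CS. With edgeR's quasi-likelihood test, the adjusted p-values of these were 1.0, 0.973 and 0.948. With standard errors this large, the absence of a call does not show that the groups were equal.

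**Figure D1:**
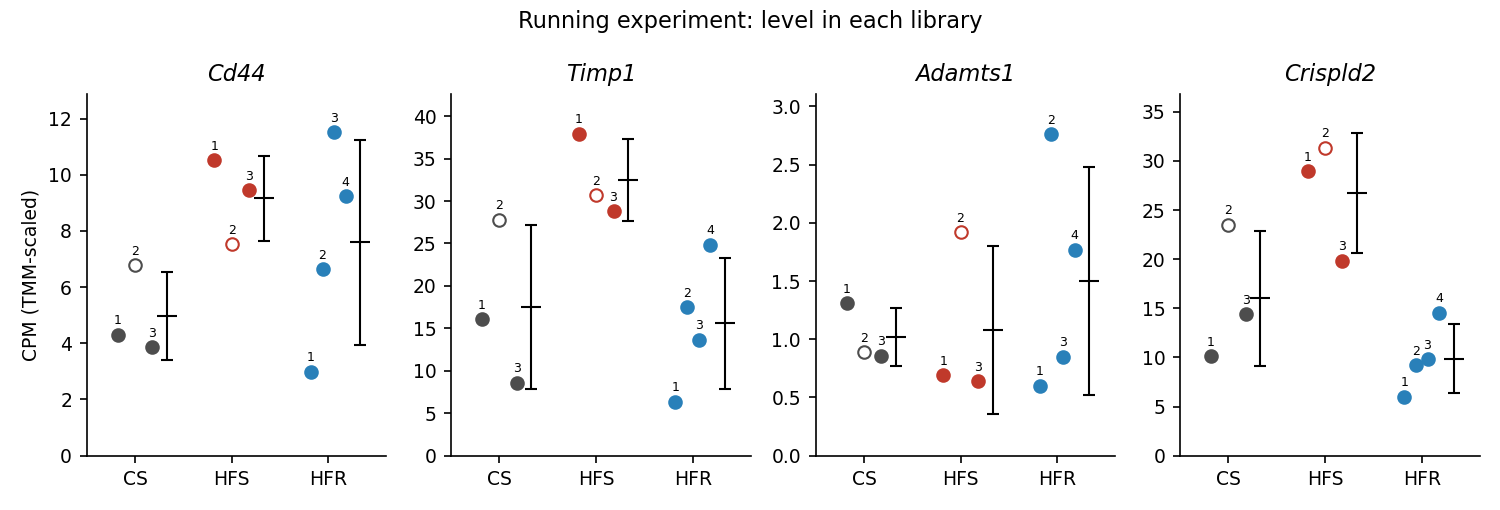
Level of each gene (CPM, TMM-scaled, linear axis from 0) in the 10 libraries of the running experiment, with the replicate number above each point. Open circles are CS replicate 2 and HFS replicate 2, which match no per-animal column of the study's list. The bar is the mean with its SD. HFS libraries were the highest for *Timp1*, HFR libraries were all below HFS for *Crispld2*, and *Adamts1* stayed at 2.76 CPM or less.

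For HFS against CS, the contrast that selected 3 of the genes, the fitted log2 fold changes were 0.87 (SE 0.42) for *Cd44*, 0.88 (SE 0.45) for *Timp1* and 0.74 (SE 0.34) for *Crispld2*. No overlap between HFS and CS with HFS higher was found for *Cd44* and *Timp1*, as for 4.81% of the 11892 genes tested. At an adjusted p under 0.1, edgeR called 1 of the 11892 genes (0.00841%), and 4.47% of genes were under an unadjusted p of 0.05. DESeq2 called 4 genes.

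The list holds no column for CS replicate 2 or HFS replicate 2, and whether they entered the comparison behind it is not known. The paper gives as many CS samples as there are CS libraries here, and more HFS samples, so both may have entered it. These 2 libraries are therefore given as a pair for description, and not as an independent look at the diet difference. In that pair *Cd44* was 1.11 times as high in HFS as in CS (95% interval 0.708 to 1.75), *Timp1* 1.10 times (0.889 to 1.37) and *Crispld2* 1.33 times (1.06 to 1.67), with exact binomial intervals that cover counting error between these libraries and not the spread between animals. In the other libraries, 2 of CS and 2 of HFS, the ratios of mean CPM were 2.44, 2.71 and 1.99. The larger ratios were those of the libraries with a column in the list, and the reason for the difference was not tested. Without CS replicate 2 the log2 fold changes were 1.16, 1.39 and 1.13, and without both unlisted libraries 1.29, 1.43 and 1.00. Other single libraries moved them down: *Timp1* was at 0.56 without CS replicate 3, *Crispld2* at 0.49 without CS replicate 1, and *Cd44* at 0.72 without CS replicate 3.

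HFR was not part of the contrast that listed the genes, and its comparison with HFS asks whether a wheel altered these genes on the high-fat diet. *Crispld2* was 2.7 times as high in HFS as in HFR, a log2 fold change of -1.42 (SE 0.32), and was the gene with the second-smallest p among the 11892 tested. *Timp1* was 2.08 times as high in HFS as in HFR, a log2 fold change of -1.04 (SE 0.41). *Cd44* differed by -0.27 (SE 0.38), within the spread between HFR libraries. After adjustment over all genes none of the 3 passed in edgeR's quasi-likelihood test (adjusted p = 0.989 for each), and the unadjusted values in that model were 0.000399 for *Crispld2*, 0.0273 for *Timp1* and 0.493 for *Cd44*. Of all genes, edgeR called 0 (0%) and DESeq2 called 1, and 504 genes (4.24%) were under an unadjusted p of 0.05. HFR lay below HFS without overlap for *Timp1* and *Crispld2*, as for 3.68% of genes.

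The HFS libraries are shared with the contrast that chose the genes for high values in HFS, so a lower HFR value is in part built into the choice. The HFS library without a column in the list gave the same order for *Crispld2* (31.35 CPM against at most 14.54 in HFR) and *Timp1* (30.71 against at most 24.87). *Cd44* in that library, at 7.52 CPM, lay inside the HFR range. Because that single library may have entered the comparison behind the list, its order cannot be taken as independent of the choice. In DESeq2 the adjusted p for *Crispld2* was 0.188. Leaving out each of the 10 libraries in turn moved the *Crispld2* value between -1.68 and -1.24 and the *Timp1* value between -1.37 and -0.79, while that of *Cd44* ran from -0.52 to -0.01, the last without HFR replicate 1.

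Against CS, HFR differed by a log2 fold change of 0.60 (SE 0.40) for *Cd44*, -0.16 (SE 0.43) for *Timp1* and -0.68 (SE 0.32) for *Crispld2*. The CS libraries are shared with the contrast that chose these genes for low values in CS, which raises HFR minus CS in part by the choice. The groups overlapped for all 3, and the adjusted p-values from edgeR were 0.995, 0.999 and 0.995. Here edgeR called 2 of 11892 genes (0.0168%), neither of them a gene described here, and DESeq2 called 18. The sign of *Timp1* depended on single libraries: it was 0.36 without CS replicate 2 and 0.10 without HFR replicate 1. *Crispld2* was at -0.28 without CS replicate 2, and *Cd44* at 0.90 without CS replicate 2 and at 0.35 without HFR replicate 3. Among the 3 group means, that of HFR was the lowest for *Crispld2* and *Timp1* and the middle one for *Cd44*, and differences between genes were not tested.

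In the miR-211 experiment *Adamts1* was at 6.55, 7.12, 8.53 and 5.50 CPM in the mimic libraries, in replicate order. It was at 16.87, 26.13, 23.44 and 23.74 CPM in the inhibitor libraries. The lowest inhibitor library was above the highest mimic library, and the spread within each group was small: the means were 6.93 ± 1.26 and 22.54 ± 3.97 CPM (SD, n = 4 each), on 7 to 22 counts in mimic and 26 to 159 in inhibitor. The level with the inhibitor was 3.25 times that with the mimic, a log2 fold change for mimic against inhibitor of -1.69 (SE 0.23).

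*Crispld2* was at 9.24, 10.45, 11.52 and 17.29 CPM with the mimic. With the inhibitor it was at 18.17, 92.89, 30.06 and 32.85 CPM. The groups did not overlap, by a margin of 0.88 CPM between mimic replicate 4 and inhibitor replicate 1, and inhibitor replicate 2 was far above the rest. The means were 12.12 ± 3.57 and 43.49 ± 33.54 CPM (SD, n = 4 each), a log2 fold change of -1.90 (SE 0.51), which was -1.24 without inhibitor replicate 2.

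*Timp1* was at 107.26, 77.41, 37.11 and 268.01 CPM with the mimic. With the inhibitor it was at 546.98, 988.94, 250.19 and 428.28 CPM. The groups overlapped only between mimic replicate 4 and inhibitor replicate 3. The means were 122.45 ± 101.21 and 553.60 ± 314.82 CPM (SD, n = 4 each), a 4.52-fold ratio and a log2 fold change of -2.21 (SE 0.70).

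*Cd44* was at 19.07, 12.35, 6.82 and 29.87 CPM with the mimic. With the inhibitor it was at 83.05, 31.45, 24.46 and 56.00 CPM. Mimic replicate 4 was again above inhibitor replicate 3, and the other mimic libraries were below every inhibitor library. The means were 17.03 ± 9.92 and 48.74 ± 26.57 CPM (SD, n = 4 each), a 2.86-fold ratio and a log2 fold change of -1.57 (SE 0.50).

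**Figure D2:**
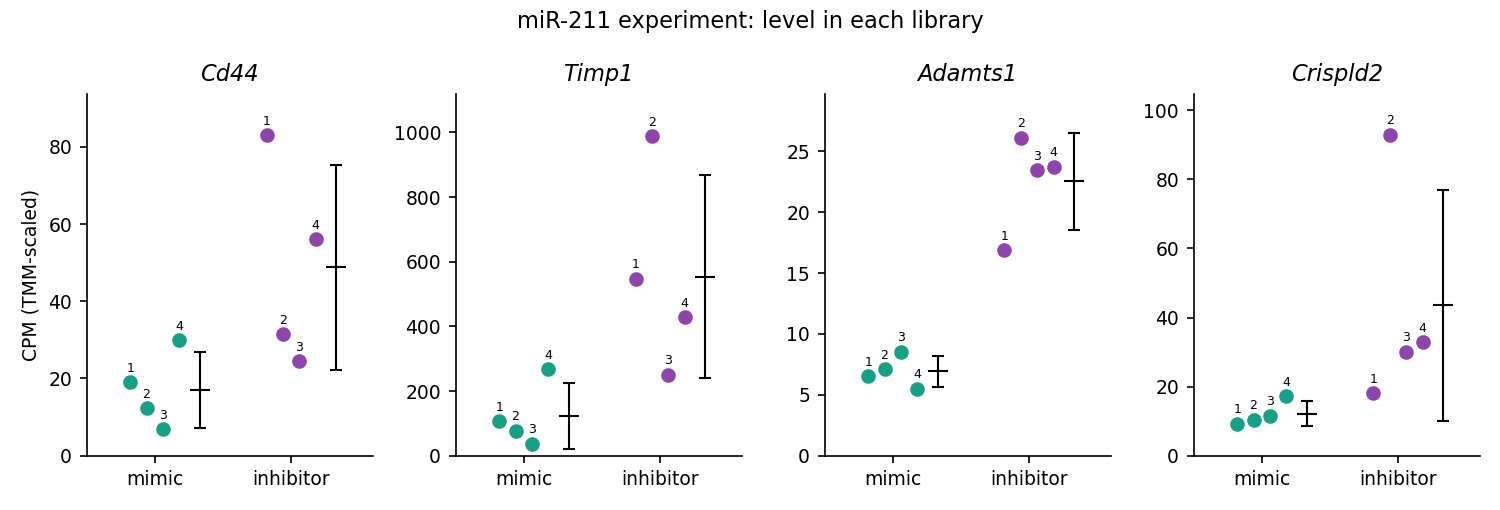
Level of each gene (CPM, TMM-scaled, linear axis from 0) in the 8 libraries of the miR-211 experiment, with the replicate number above each point and the mean with its SD beside each group. *Adamts1* and *Crispld2* were lower in every mimic library than in any inhibitor library, and for *Timp1* and *Cd44* mimic replicate 4 lay above inhibitor replicate 3.

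The genes were selected on this contrast, so nothing further is read from how many of them stood out. By description, 2 of the 4 were lower in mimic without overlap, against 3.71% of the 9625 genes tested. Over all genes edgeR called 43 (0.447%; 42 lower and 1 higher in mimic) at an adjusted p under 0.05 and DESeq2 called 176. *Adamts1* had the smallest spread among libraries of the 4: its SD within a group was 17.6% to 18.2% of the mean, compared with 29.4% to 82.7% for the other 3. With 7 to 22 counts per mimic library, counting error is part of this SD, so it does not measure the spread between animals alone.

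**Figure D3:**
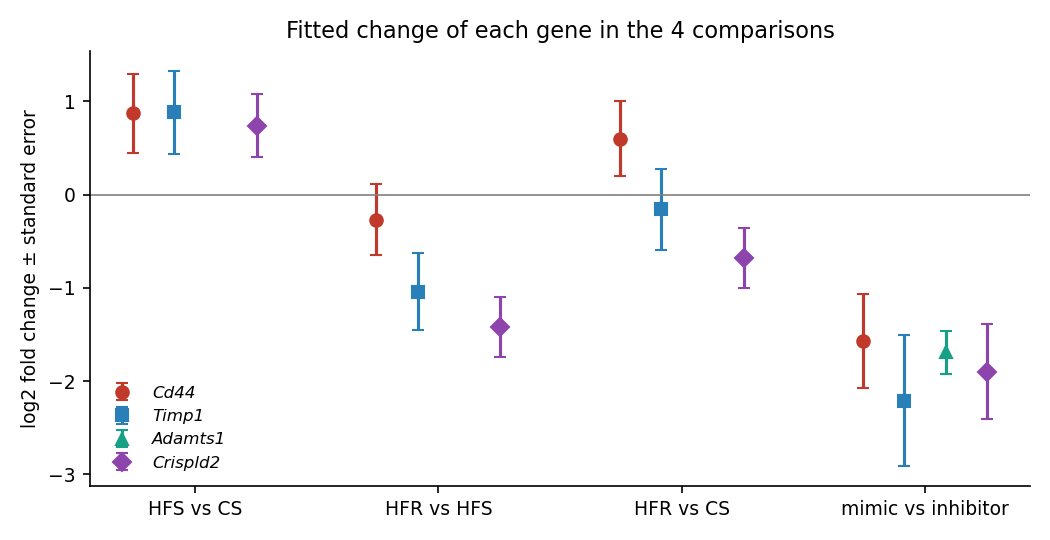
Fitted log2 fold change of each gene with its standard error (first-named group over second) in the 4 comparisons. *Adamts1* is drawn for mimic against inhibitor alone, because it was below the filter in the running experiment. The values for HFS against CS and for mimic against inhibitor come from contrasts that selected the genes. *Crispld2* reached -1.42 in HFR against HFS, where *Cd44* was at -0.27.

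The chow-fed groups of the 2 experiments differed in level, which is given side by side without a test, because RNA kit, fasting, cannula and counting differed. *Timp1* ran from 8.59 to 27.80 CPM in CS and from 37.11 to 988.94 CPM in the 8 infused rats. *Adamts1* ran from 0.86 to 1.31 CPM in CS and from 5.50 to 26.13 CPM in infused rats, and *Cd44* from 3.86 to 6.77 and from 6.82 to 83.05 CPM. For *Timp1* and *Adamts1* the lowest infused library was above the highest CS library. For *Cd44* the 2 nearly met, at 6.82 CPM in mimic replicate 3 (16 counts) and 6.77 CPM in CS replicate 2 (38 counts). *Crispld2* overlapped, at 10.10 to 23.52 and 9.24 to 92.89 CPM.

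Because differences between groups chose the genes, their covariation was examined only within groups, as the log2 CPM of each library minus its group mean. In the running experiment the 3 measured genes tended to deviate together. *Cd44* and *Timp1* had r = 0.77 and rho = 0.68 (n = 10 libraries, exact permutation p = 0.0567 and 0.0845). *Timp1* and *Crispld2* had r = 0.74 and rho = 0.71 (n = 10, exact permutation p = 0.0556 and 0.0602). *Cd44* and *Crispld2* had r = 0.66 and rho = 0.64 (n = 10, exact permutation p = 0.0938 and 0.109). HFR replicate 1 was below its group mean for each gene, with log2 deviations of -1.10 (*Cd44*), -1.09 (*Timp1*) and -0.63 (*Crispld2*), and CS replicate 2 and HFR replicate 4 were above theirs for each. Without the 2 libraries with the largest *Cd44* deviations, HFR replicates 1 and 3, r was 0.85 for *Cd44* and *Timp1* and 0.61 for *Cd44* and *Crispld2*. Without the 2 farthest out in *Timp1*, CS replicate 3 and HFR replicate 1, r was 0.84 for *Timp1* and *Crispld2*. CS replicate 3 and HFR replicate 1 were also the farthest from the median in *Cd44* level, and without them r was 0.29 for *Cd44* and *Timp1* and 0.44 for *Cd44* and *Crispld2*, so these relations rest in part on that pair.

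In the miR-211 experiment *Cd44* and *Timp1* again deviated the same way (r = 0.68, rho = 0.69, n = 8 libraries, exact permutation p = 0.0972 and 0.101), but r was 0.26 without mimic replicates 3 and 4, which had the largest deviations. *Adamts1* deviated the opposite way from *Cd44* within groups (r = -0.88, rho = -0.79, n = 8, exact permutation p = 0.0122 and 0.0451), although the means of both were lower in mimic than in inhibitor. This r was -0.78 without mimic replicates 3 and 4, and -0.67 without mimic replicate 3 and inhibitor replicate 1, the farthest in *Cd44* level. Mimic replicate 4 had the highest *Cd44* and the lowest *Adamts1* of the mimic libraries, mimic replicate 3 the reverse, and inhibitor replicate 1 had the highest *Cd44* and the lowest *Adamts1* of its group. The *Adamts1* deviations in mimic, from -0.28 to 0.29, rest on 7 to 22 counts per library. The part of counting error in its values of r was not tested. *Timp1* and *Crispld2* had r = 0.52 and rho = 0.26 (exact permutation p = 0.153 and 0.535). *Timp1* and *Adamts1* had r = -0.49, *Adamts1* and *Crispld2* r = 0.45 and *Cd44* and *Crispld2* r = -0.24, with exact permutation p = 0.26, 0.354 and 0.646. Without mimic replicates 3 and 4, *Timp1* and *Crispld2* had r = 0.59, *Timp1* and *Adamts1* 0.08 and *Cd44* and *Crispld2* -0.58, and without mimic replicate 4 and inhibitor replicate 1 *Adamts1* and *Crispld2* had r = 0.56. Of the 9 values of r none passed Benjamini-Hochberg adjustment, and the smallest adjusted p from the exact permutations was 0.11, for *Cd44* and *Adamts1*, and 0.17 for the pairs with *Timp1* in the running experiment. For rho the smallest adjusted p was 0.196. All 2-sided permutations were made within groups.

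**Figure D4:**
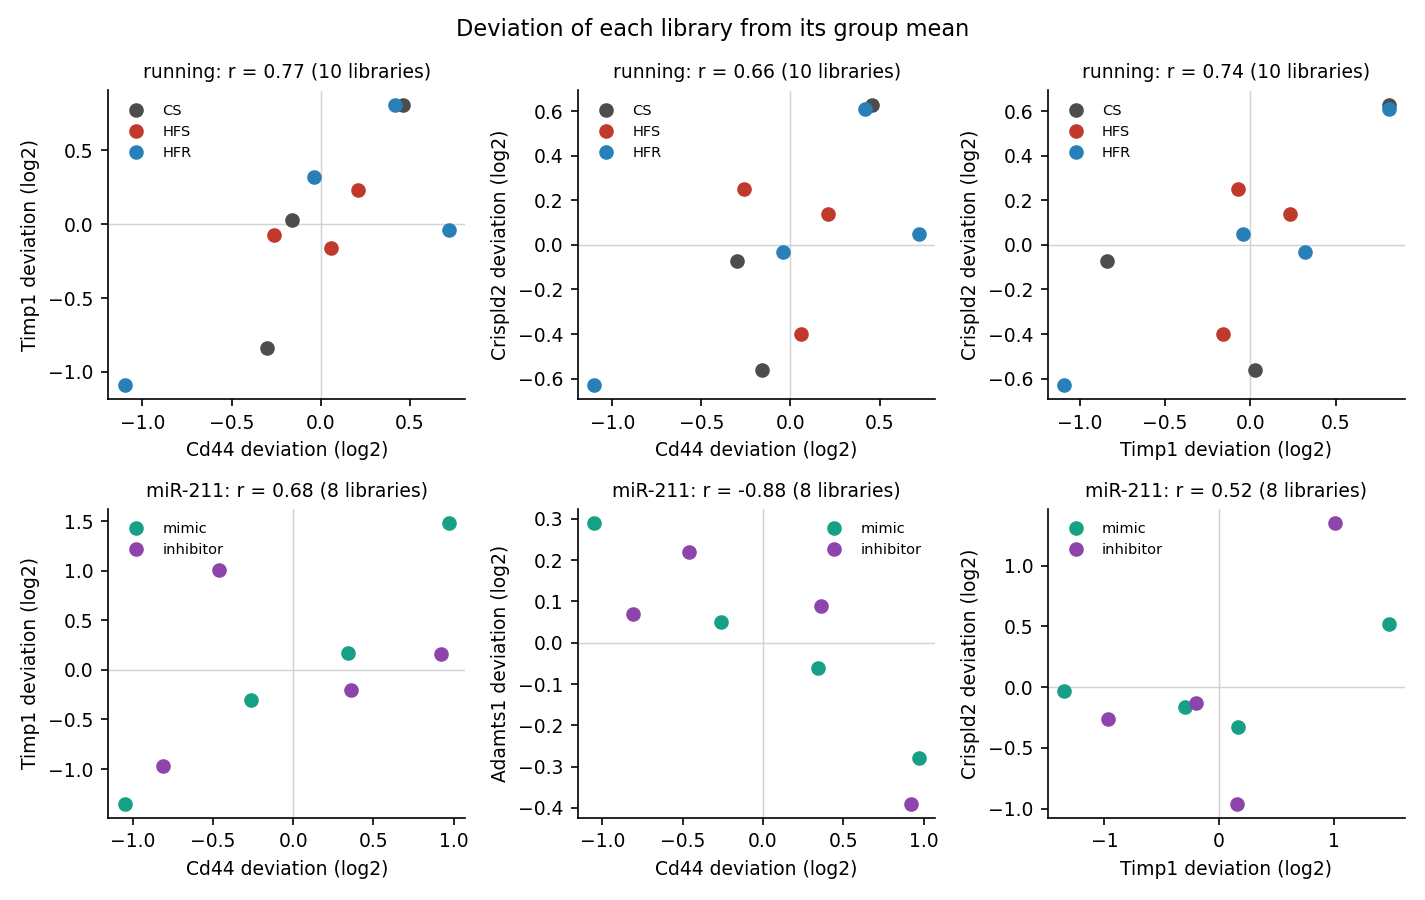
Deviation of each library from its group mean (log2 CPM) for pairs of the genes, in the running experiment (upper row, 10 libraries) and the miR-211 experiment (lower row, 8 libraries), coloured by group. *Cd44* and *Timp1* tended to deviate together in both (r = 0.77 and 0.68). *Adamts1*, on 7 to 22 counts in the mimic libraries, deviated the opposite way from *Cd44* (r = -0.88).

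Over all 18 libraries with group means removed, each of *Cd44*, *Timp1* and *Crispld2* had other genes that followed it more closely than the members did. Among 9364 genes compared, those with a symbol nearest to *Cd44* were *Trip6* (r = 0.92), an adaptor of focal adhesions, *Nes* (0.91), the intermediate filament nestin, and *Ier5* (0.85), an immediate early gene at rank 10. For *Timp1* they were *Cxcl16* (0.93), a transmembrane chemokine, *Pdpn* (0.91), podoplanin, and *Fgl2* (0.84, rank 12). For *Crispld2* they were *C3* (0.86), the central complement component, *Mt1-ps3* (0.86), a metallothionein pseudogene whose reads may be shared with its paralogs, and *Cyba* (0.82), a subunit of the phagocyte NADPH oxidase. *Timp1* ranked at 113 for *Cd44* (r = 0.71), while *Crispld2* ranked at 4037 (r = 0.08). For *Adamts1*, over the 8 miR-211 libraries alone, the closest of 9624 genes was ENSRNOG00000051204 (r = 0.98), for which no symbol was at hand. The nearest with a symbol were *Ptafr* (0.96, rank 5), the receptor for platelet-activating factor, *Ifitm1* (0.95, rank 6) and *Snx17* (0.90, rank 42). *Adamts1* had 7 to 22 counts in the mimic libraries, so counting error enters these values. Symbols were known only for genes on the study's lists, and correlations picked as the highest among so many genes over few libraries are descriptions.

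The surrounding matrix genes were taken from 5 lists by role with 118 symbols, of which 53 had an identifier, each through one of the study's own lists, so their directions are not independent evidence. In HFS against CS, 43 of the 44 tested genes other than the members were above 0, with a median log2 fold change of 0.52, against 0.003 for all genes. In HFR against HFS 43 of 44 were below 0, with a median of -0.54, against -0.01. By role, the medians in these 2 comparisons were 0.72 and -0.68 for proteases, 0.69 and -0.71 for protease inhibitors, 0.30 and -0.27 for hyaluronan, CD44 partners and proteoglycans, 0.53 and -0.63 for structural proteins and 0.49 and -0.56 for collagen folding and cross-linking. In the same order, 5 of 8, 4 of 7, 4 of 10, 18 of 21 and 5 of 7 identified genes are on the study's list for HFS against CS. The medians therefore cannot be compared between roles. No list gene was called by edgeR in any of the 3 running comparisons with all libraries. Without CS replicate 2 the median of the tested list genes in HFS against CS was 0.92 (0.55 with it, members included), and *Klk6* was called, at a log2 fold change of 1.52. *Klk6* is itself on the study's list for HFS against CS and was named for this after its values were seen, so its call is a description. In HFR against CS 19 of 44 were above 0 and 25 below, with a median of -0.04, and this balance rested on CS replicate 2: with the members included, 20 of 47 were above 0 with it and 42 of 48 without it, a choice made after seeing the data.

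Among the proteases and inhibitors, *Klk6*, a kallikrein of oligodendrocytes, was at 97.21 ± 48.15 (CS), 198.56 ± 40.82 (HFS) and 135.25 ± 31.05 CPM (HFR; SD, n = 3, 3 and 4), and *Serping1*, the C1 inhibitor, at 48.99 ± 34.75, 82.70 ± 19.75 and 39.88 ± 20.22 CPM. Of the structural proteins, *Aebp1* was at 72.74 ± 72.05, 124.99 ± 34.75 and 53.97 ± 32.54 CPM, and *Prelp*, a leucine-rich proteoglycan, at 72.08 ± 50.46, 111.97 ± 32.78 and 61.00 ± 26.39 CPM. *Plod1*, a collagen lysyl hydroxylase, was at 47.04 ± 6.33, 70.04 ± 7.40 and 54.49 ± 4.86 CPM, and *Sdc4*, a cell-surface proteoglycan, at 287.65 ± 45.68, 305.70 ± 32.71 and 284.32 ± 10.51 CPM. Within these genes *Aebp1* had an SD in CS nearly as large as its mean, whereas *Sdc4* varied little.

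In mimic against inhibitor 36 of the 42 other list genes were below 0, with a median of -0.47, against 0.009 for all genes. Of these, 3 were called, each lower in mimic: *Tnfaip6*, which transfers protein chains onto hyaluronan, *Ccn1*, a matricellular protein, and *Fn1*, fibronectin. *Ccn1* was at 1.07 ± 0.72 CPM in mimic and 9.64 ± 2.52 in inhibitor (log2 fold change -3.14, SE 0.44). *Tnfaip6* was at 6.48 ± 2.22 and 20.04 ± 4.96 CPM (-1.66, SE 0.30), and *Fn1* at 26.97 ± 4.90 and 59.30 ± 12.55 CPM (-1.11, SE 0.18; SD, n = 4 each). The hyaluronan and proteoglycan list had all 10 of its tested genes below 0 (median -1.20), the proteases all 5 (-0.51) and the structural proteins 15 of 19 (-0.39). The collagen-processing list had a median of -0.13, with *Serpinh1*, the collagen chaperone, at 197.00 ± 24.37 and 220.29 ± 43.90 CPM. The protease inhibitors had a median of -1.38, while *Cst3*, cystatin C, was at 12024 ± 1149 and 11845 ± 2561 CPM. The share of identified genes on the study's list for this contrast differed by role. It was 7 of 10 for hyaluronan and proteoglycans, 4 of 7 for protease inhibitors and 3 of 8 for proteases. For collagen processing it was 2 of 7 and for structural proteins 4 of 21, so the medians cannot be compared between roles.

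**Figure D5:**
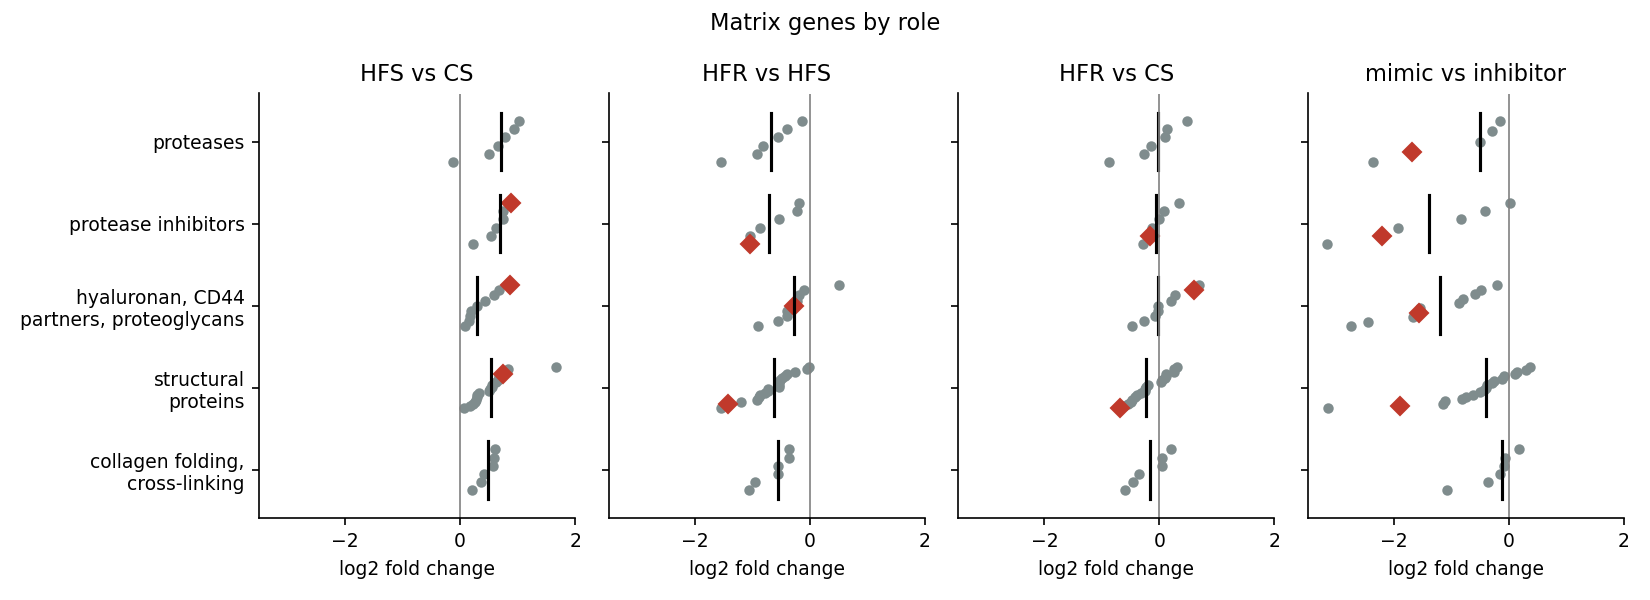
Log2 fold change of each tested matrix gene (grey points) by role in the 4 comparisons. Red diamonds are *Cd44*, *Timp1*, *Adamts1* and *Crispld2* where tested, and black lines are list medians. Nearly all list genes lay above 0 in HFS against CS and below 0 in HFR against HFS, and in HFR against CS they lay on both sides. The genes come from the study's lists of these samples.

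Markers of several other cell types moved with these values, and their part in the result was not tested. A marker could be used only if the study's lists held it. The list for HFS against CS held 5 of the 6 fibroblast and meningeal and 5 of the 6 microglial and macrophage markers. It also held 2 of the 3 astrocyte, all 5 neuronal, 2 of the 2 oligodendrocyte and 2 of the 6 endothelial and mural markers. Their directions in HFS against CS are therefore not independent evidence. Summed CPM of 6 fibroblast and meningeal markers (of 11; *Fbln1*, *Fbln5*, *Aebp1*, *Prelp*, *Twist1* and *Prrx2*) ran from 124 to 438 in CS, from 289 to 438 in HFS and from 84.3 to 308 in HFR. CS replicate 2, the highest CS library for *Cd44*, *Timp1* and *Crispld2*, was at 438, against 132 and 124 in the other CS libraries, and HFR replicates 1 and 4 had the lowest and the highest sum of their group. Summed CPM of 6 microglial and macrophage markers (of 11, *C1qa*, *C1qb* and *C1qc* among them) ran from 297 to 519 in CS, from 478 to 622 in HFS and from 307 to 445 in HFR, with CS replicate 2 at 519. The 3 astrocyte markers (of 7, with *Gfap*) summed to 1260 to 2230, 1880 to 3580 and 1070 to 2510 CPM. The 5 neuronal markers (of 7, with *Snap25*) summed to 2380 to 3980 CPM in CS, where replicate 2 was the lowest, 2620 to 3020 in HFS and 3110 to 3710 in HFR. The 2 oligodendrocyte markers (of 5; *Mbp* and *Klk6*) summed to 7560 to 12200, 11900 to 18000 and 10300 to 14400 CPM in CS, HFS and HFR. The 6 endothelial and mural markers (of 12) had similar group means, at 432, 434 and 409 CPM.

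In the miR-211 experiment the sum of 5 neutrophil and monocyte markers (of 7; *S100a8*, *Mcemp1*, *Trem1*, *Il1r2* and *Lyz2*) ran from 140 to 192 CPM with the mimic and from 214 to 1230 CPM with the inhibitor, and all 5 are on the study's list for this contrast. Inhibitor replicate 1 had the lowest sum of its group (214) and replicate 2 the highest (1230). These 2 libraries were also the lowest and the highest of the group for *Adamts1* and *Crispld2*, whereas *Cd44* was highest in replicate 1. Most of the sum was *Lyz2*, which microglia also carry. *Mcemp1* was at 0 in all 10 running libraries, at 0 to 4 counts in mimic libraries and at 1, 61, 17 and 134 counts in inhibitor libraries, and *S100a8*, a neutrophil calcium-binding protein, at 2 to 23 counts with the mimic and 7, 141, 56 and 431 with the inhibitor. These are raw counts and not levels: the inhibitor libraries held 1559206, 2096588, 2002693 and 6615927 counts in all, and the mimic libraries 1275263 to 3318751. In inhibitor replicate 1 these counts were 1 and 7, *Trem1* was at 3 (0 to 2 with the mimic) and the summed level was 214 CPM, while *Timp1* was at 546.98, *Cd44* at 83.05, *Adamts1* at 16.87 and *Crispld2* at 18.17 CPM. Microglial and macrophage markers summed to 333 to 597 CPM with the mimic and 481 to 1020 CPM with the inhibitor. Sums for the other types, mimic first, also overlapped. They were 70.6 to 112 and 95.4 to 211 CPM for fibroblasts and meninges, 1520 to 3240 and 2200 to 2950 for astrocytes. Neuronal sums were 2600 to 3890 and 2230 to 3130, and oligodendrocyte sums 5350 to 10300 and 6450 to 9730. Endothelial and mural sums were 277 to 368 and 340 to 450, and edgeR called 1 of those 6 markers. The 2 identified tanycyte markers (of 7), *Lhx2* and *Nes*, the latter among the genes nearest to *Cd44* above, summed to 94.1 CPM in inhibitor replicate 1 and 75.5 in mimic replicate 4, the highest *Cd44* libraries of their groups, and to 19.2 in mimic replicate 3 and 21.9 in HFR replicate 1, the lowest of theirs. Because the sum holds *Nes*, its likeness to *Cd44* is not a separate observation. Of the 2 markers 1 was higher and 1 lower in mimic against inhibitor. Mimic replicate 3, with the lowest arcuate marker sum (81), had the lowest *Cd44* and *Timp1* of all 8 libraries, and CS replicate 3 and HFR replicate 1, the lowest for arcuate markers in the running experiment, had the lowest *Cd44* and *Timp1* of their groups. The inhibitor group went the other way. Its replicate 1 had the lowest arcuate sum of the group (281) but the highest *Cd44* (83.05 CPM), with *Timp1* at 546.98 CPM, above that of replicates 3 and 4.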

How the data were processed

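The members and gene lists were chosen with earlier results of these data known. The authors prepared bulk MARS-seq libraries (transcript ends), aligned them to Rnor6 with STAR 2.7.9a, removed duplicates with SAMtools and counted reads with HTSeq 0.13.5 without strand. The deposited values are counts per Ensembl gene. Only the miR-211 files are named as UMI-corrected, and how the running files were treated is not stated. Reads not assigned to a gene were left out.

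From these counts, edgeR 4.0.16 (R 4.3.3) was fitted once to the 10 running libraries (11892 genes after filterByExpr) and once to the 8 miR-211 libraries (9625 genes), with TMM factors of 0.976 to 1.039, quasi-likelihood tests and Benjamini-Hochberg adjustment over all genes. Genes were called at an adjusted p under 0.1 (running) or 0.05 (miR-211). Log2 CPM used a prior count of 2. Covariation was tested by exact permutation within groups (864 and 576 arrangements), with Python 3.11.15 and SciPy 1.17.1. *Adamts1* was below the filter in the running experiment, so 9 of 12 planned pairs were computed. Alternatives were DESeq2 1.42.0, other scalings, filters, sample sets, a replicate block and leaving out each library. Scripts were tested on simulated data.

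Named genes were the members, in each matrix list the called genes (at most 4) or otherwise the 2 most abundant, of which some are given, and for likeness the 3 nearest genes with a symbol plus the nearest of any name. Symbols came from the study's lists (606 identifiers). The study's figure captions describe the libraries as biologically independent samples. The study gives more HFS samples than the 3 HFS libraries used here.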

Additional observations from a re-analysis of the deposited data

How the results depend on the processing

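The fold changes kept their sign under DESeq2, 2 other scalings and 2 other filters. The sign of *Timp1* in HFR against CS turned without CS replicate 2 and HFS replicate 2 (0.35), and with single libraries left out it ran from -0.49 to 0.36. DESeq2 called 4, 1, 18 and 176 genes in HFS against CS, HFR against HFS, HFR against CS and mimic against inhibitor, where edgeR called 1, 0, 2 and 43. In DESeq2 the log2 fold changes for mimic against inhibitor were -1.54 for *Cd44* and -1.86 for *Crispld2*. Without a filter edgeR called 8 genes in HFR against CS and 125 in mimic against inhibitor, and with the threshold of the other experiment 0 in HFS against CS and 79 in mimic against inhibitor. Fitted to HFS and CS alone it called 0. The causes were not tested.

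Same-numbered libraries did not all deviate together (r from -0.12 to 0.21), and 1 of 6, 3 of 6, 2 of 6 and 5 of 8 libraries correlated best with their own number in the 4 comparisons, so the numbers were not taken as pairs. With the replicate block, 0, 2, 0 and 52 genes were called, and *Cd44* was at -1.55 in mimic against inhibitor.

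Leaving out each library in turn gave 0 to 2 calls in HFS against CS, 0 in every fit of HFR against HFS, 0 to 3 in HFR against CS and 0 to 111 in mimic against inhibitor, where *Adamts1* ran from -1.80 to -1.62. Without a filter 5 list genes were above 0 in HFR against HFS, against 1, and 2 without CS replicate 2. For HFR against CS 41 list genes were above 0 without both unlisted libraries and 42 without CS replicate 2. The within-group r of *Cd44* and *Crispld2* in the miR-211 experiment turned to 0.15 without the 2 libraries farthest in *Cd44* level, and ran from -0.54 to 0.13 (without inhibitor replicate 1) with single libraries left out. That of *Timp1* and *Adamts1* turned to 0.08 without the 2 libraries of largest *Timp1* deviation, an alternative added after the data were seen. Low counts limit *Adamts1* in the running experiment and, at 7 to 22 counts, in the mimic libraries.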
